A study of Homo sapiens with 12 samples.

Results

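Glycolysis and the response to low oxygen were followed here through 39 genes that encode 17 glycolytic enzymes, 4 transporters of glucose and lactate, 4 regulatory kinases, the hypoxia-inducible factor subunit HIF1A with 2 oxygen sensors, and 11 further targets of hypoxia-inducible factor (HIF). They were selected by symbol as known members of these pathways, with earlier results of these data known. All 39 were found among the 28278 symbols in the MYC and MYC&MED30 tables, and 38 among the 25056 symbols of the MED30 tables, where ALDOA was not analysed. The data were 12 libraries of precision run-on sequencing (PRO-seq), which sequences the RNA that engaged polymerases extend in isolated nuclei and so measures ongoing transcription. The cells were Mia PaCa-2, an established line from a human pancreatic carcinoma, in 3 stable lines that carry Dox-inducible MED30, HA-tagged MYC, or both (MYC&MED30), on vectors with puromycin resistance. Each line was sequenced with Dox at 0.5 μg/ml (overexpression) and without Dox (control), with 2 replicates per group. The methods give 1 day of Dox, and the text of the study's results gives 2 days. The controls carried the same integrated constructs as the overexpression libraries and lacked only Dox, so an effect of Dox itself and an effect of the induced gene cannot be told apart. Whether the lines were single clones was not given in the sources used here.

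Glycolysis splits glucose into pyruvate, and lactate dehydrogenase turns pyruvate into lactate, which leaves the cell through monocarboxylate transporters. HIF is a dimer whose alpha subunit is marked for destruction by prolyl hydroxylases when oxygen is present, and when stable it raises transcription of glycolytic enzymes, glucose transporters, pyruvate dehydrogenase kinases and genes of blood vessel growth. MYC, with its partner MAX, binds the E-box letters CACGTG and is known to act on many glycolytic genes, and pancreatic carcinoma is known for low oxygen and high use of glucose. MED30 is a subunit of Mediator, the complex that links transcription factors to RNA polymerase II.

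The stretches of 30 bases below show where the E-box letters (CACGTG) or the core letters of a hypoxia response element (ACGTG or GCGTG) occur in the 250 bases before transcript starts of members that the tests below called changed. They are shown because these are the letters through which MYC and HIF are known to bind, and 6 members were searched, those called in most comparisons (the difference between lines included), with ties broken by the smallest adjusted p in the MYC-labelled libraries. Sequences run 5′ to 3′ along the gene's strand, come from RefSeq promoters of GRCh38.p14 and were identical in hg38, and capitals mark the match.
ENO2, chr12:6914450-6914479, plus strand, 118 bases before its start: acccgcgctcgtACGTGcgcctccgccggc
ADM, chr11:10304960-10304989, plus strand, 101 bases before its start: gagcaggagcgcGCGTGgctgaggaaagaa
PFKFB4, chr3:48556952-48556981, minus strand, 166 bases before a start: tgagttgggcatGCGTGgtcggaggccggg
GAPDH, chr12:6535171-6535200, plus strand, 81 bases before a start: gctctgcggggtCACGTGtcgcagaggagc
LDHA, chr11:18394366-18394395, plus strand, 185 bases before its outer start: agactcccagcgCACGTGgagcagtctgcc
LDHA, chr11:18394464-18394493, plus strand, 87 bases before the same start: cagcccgactcaCACGTGggttcccgcacg
LDHA, chr11:18394478-18394507, plus strand, 73 bases before the same start, a core on the opposite strand: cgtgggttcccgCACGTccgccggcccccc
The windows of GAPDH and LDHA held the E-box letters, LDHA with a separate ACGTG core, and those of ENO2, ADM and PFKFB4 held only the core letters. The window of P4HA2 (chr5:132227092-132227341, minus strand) held none of the 3. The windows of P4HA2, GAPDH and PFKFB4 lay before inner starts, inside the RefSeq spans of these genes. Those spans are chr5:132190147-132227853, chr12:6534517-6538371 and chr3:48517684-48563136. The bases before the outer starts of these genes were not searched, so nothing is said of them. LDHA has another start in the table, with a GCGTG on the opposite strand 123 bases before it. Both strands were searched, and each CACGTG also counts as ACGTG on both strands. Over all 35093 RefSeq promoters of this length, 6.34% held CACGTG, 18.5% ACGTG, 32.2% GCGTG and 43.2% either core. The 34 members with a promoter in the table had 62 promoters, of which only the first listed of each member was counted. Of these 34 promoters, 6 held CACGTG (17.6%), 15 held ACGTG (44.1%), 12 held GCGTG (35.3%) and 22 held either core (64.7%). The shares over all promoters took every distinct promoter of a gene, so the members' shares were not counted alike. A match describes the letters and does not show that a protein binds there.

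In 7 of the 8 libraries labelled MYC or MYC&MED30 the raw counts totalled 20616713 to 29881914, while MYC&MED30 control 2 held 1257499. The MED30 tables held values that had been scaled to totals of 6379143 to 6519353 and rounded, so their depth is unknown. These values stood in a nearly fixed ratio to the counts labelled MYC of the same condition and replicate number (medians of 0.244 to 0.291), and the log2 ratios of replicate 1 to 2 correlated across genes between both sets of tables at 0.92 for the controls and 0.932 with Dox, against -0.134 and -0.266 between MYC&MED30 and MYC. Of the members, 25 of 38 had a ratio of 0.24 to 0.3, as did 72.8% of 10687 shared genes with over 1000 counts, and 9 lay below, GPI (0.104) and PFKFB3 (0.111) lowest. The comparisons labelled MED30 and MYC are therefore given side by side and are not read as independent of each other. The MED30 gene rose under each label (log2 fold change of 4.46 in the libraries labelled MYC, 4.44 in MED30 and 4.78 in MYC&MED30). The MYC gene rose in MYC&MED30 (1.16) but fell by 0.57 where labelled MYC and by 0.58 where labelled MED30, so the label MYC stands in doubt throughout and is used only as a label. The epithelial keratin genes KRT8 and KRT18 and the mesenchymal gene VIM were transcribed in every library (81 to 1332 CPM, that is, counts or values per 1e6 of the library total), while markers of immune cells, endothelium, fibroblasts and liver were at 3.38 CPM or less, and CDKN2A, deleted in this line, at 0.388 or less.

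Levels are given as TMM-scaled CPM for the libraries labelled MYC or MYC&MED30, and as TMM-scaled values for MED30. A member counted as changed, or called, where its adjusted p was under 0.05 in a test across all genes, with edgeR's quasi-likelihood test for the counts and limma for the MED30 values, adjusted by Benjamini-Hochberg. Fold changes are log2 of Dox over control and relative to the other genes, since no spike-in was used, and in bulk samples fewer transcribing cells and less RNA per cell cannot be told apart. No source used here says that replicates were separate cultures, so p-values cover the spread of these libraries alone, which may be technical.

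In the MYC-labelled libraries, 13 of the 39 members changed with Dox, 7 upward and 6 downward, so that the genes of the pathway moved both ways and their median stayed at 0.005, close to the 0.010 of all genes. The share called was 33.3%, against 13% of all 19318 genes tested. By direction, 5.32% of all genes rose and 7.71% fell. In the MED30 values, 15 of 37 tested members changed (40.5%), 9 upward and 6 downward, against 16.4% of 14780 genes, of which 7.12% rose and 9.29% fell. The members' median there was 0.071. In MYC&MED30, 2 of 39 changed (5.13%), PKM upward and GAPDH downward, against 6.74% of all genes, 3.65% upward and 3.09% downward, and the median was -0.034 against 0.018 over all genes. The study took genes with p under 0.05 and over 0.35 of log2 change in either direction. By that measure, with unadjusted p, 8 members passed in the MYC-labelled libraries, 8 in MED30 and 3 in MYC&MED30, against 14.2%, 17% and 12.8% of all genes.

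**Figure D1:**
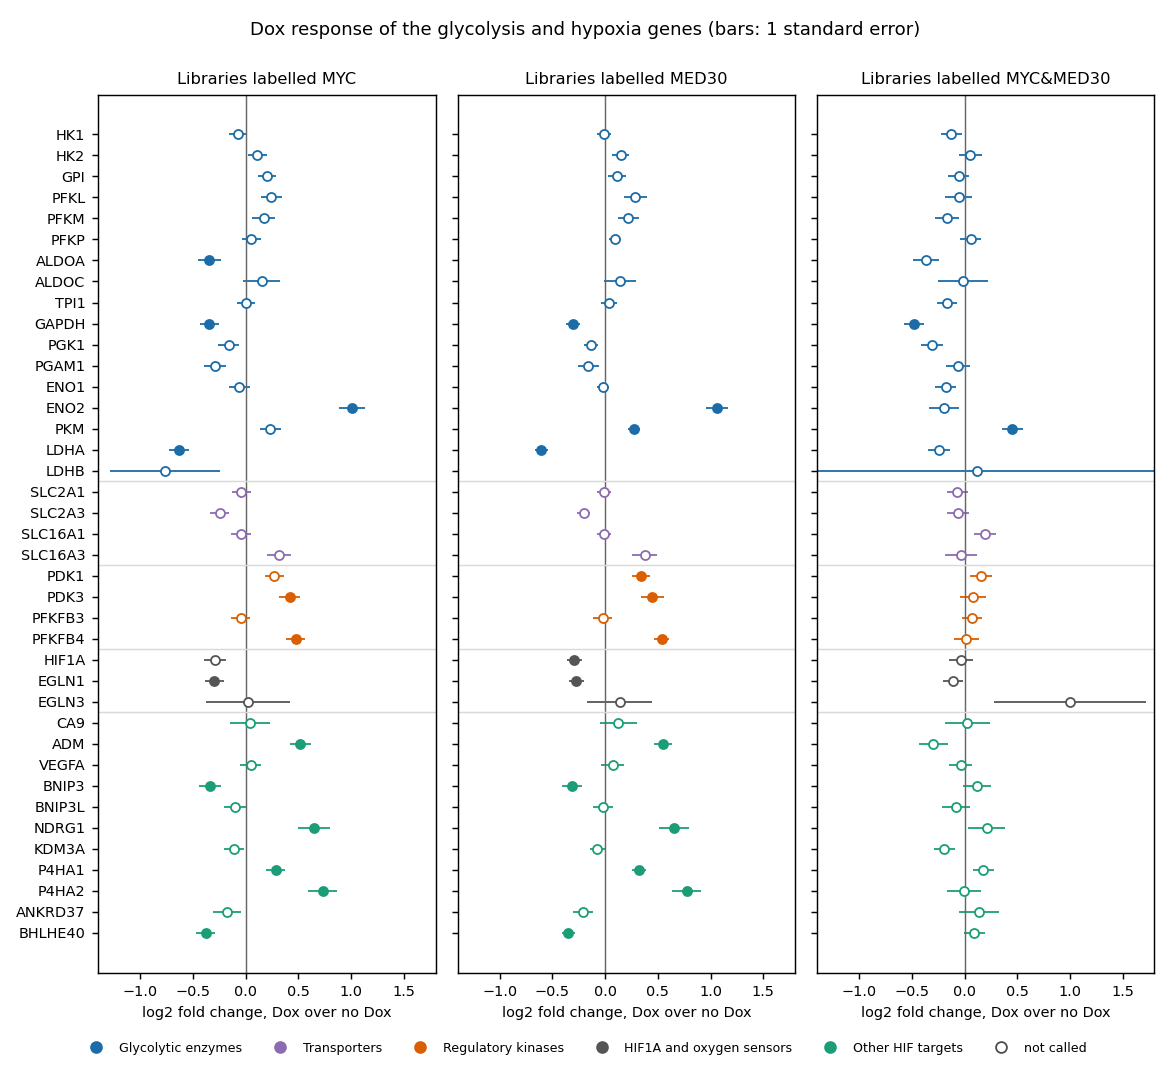
Dox response of the 39 members by role, as log2 fold change of Dox over control with bars of 1 standard error, in MYC-, MED30- and MYC&MED30-labelled libraries. Filled points were called at an adjusted p under 0.05 and open points were not; 13, 15 and 2 points are filled, ALDOA and LDHB have no point in MED30, and the bar of LDHB in MYC&MED30 runs past the axis.

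Scaling by library size alone, in place of TMM, moved the median of all genes in the MYC-labelled libraries from 0.010 to 0.158 and turned the members' split from 7 up and 6 down into 15 up and 3 down. In MED30 the same scaling moved the median of all genes from 0.002 to 0.114 and the split from 9 and 6 to 12 and 2, and in MYC&MED30 the split went from 1 and 1 to 1 and 3. Among all genes, the calls turned upward as well. Where labelled MYC, 40.8% of these calls rose under TMM and 76.7% under library size alone, with 13% and 18.8% of genes called. The rising part for MED30 was 43.4% under TMM against 73% under library size alone. For MYC&MED30 it was 54.2% against 64.1%. LDHA, GAPDH and BHLHE40 still fell in the MYC-labelled libraries under library size alone, whereas ALDOA, BNIP3 and EGLN1 no longer passed. Leaving out MYC control 1 left 4 called members (ENO2, ADM, PFKFB4 and LDHA), leaving out MYC control 2 left 6 (the same genes with PDK3 and P4HA2), and leaving out MYC overexpression 1 gave 20. Calls over all genes moved too, to 4.43%, 3.91% and 21% in these fits. ALDOA, BNIP3 and EGLN1 were also lost without MYC overexpression 2, and EGLN1 and P4HA1 without either Dox library of MYC&MED30, which share the fit. In MED30, 4 members were left without control 1 (ENO2, ADM, PFKFB4 and LDHA), 5 without control 2 (P4HA2 with them), 25 without overexpression 1 and 22 without overexpression 2, while the share of all genes called went to 6.1%, 5.16%, 47.1% and 32%.

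Among the glycolytic enzymes, ENO2 rose, while LDHA, GAPDH and ALDOA fell in the MYC-labelled libraries. ENO2 encodes the enolase best known from neurons and lies at chr12:6914580-6923697. Its level was 21.5 and 21.2 CPM in the MYC controls and 41.0 and 44.9 CPM with Dox. Both Dox libraries thus lay well above both controls, and the log2 fold change was 1.01 (standard error 0.12, edgeR adjusted p = 7.59e-07). With counts thinned to the smallest library it was 0.53 and was not called (edgeR adjusted p = 0.262). In the MED30 values ENO2 went from 148.6 and 146.1 to 286.9 and 331.4 (log2 fold change 1.06, limma adjusted p = 0.000246). In MYC&MED30 the controls stood at 24.2 and 11.8 CPM and the Dox libraries at 19.9 and 19.1 CPM, so that the groups overlapped (log2 fold change -0.20, edgeR adjusted p = 0.507). The lower control value is that of the shallow library, where ENO2 had 16 reads against 617 in control 1.

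The more widely used enolase, ENO1, was at 593.5 and 586.9 CPM in the MYC controls and 574.9 and 557.6 CPM with Dox. Its log2 fold change of -0.06 did not pass (edgeR adjusted p = 0.764), nor did that in MED30 (-0.02) or MYC&MED30 (-0.18). Per kilobase of gene, the mean of the MYC controls was 33.4 CPM for ENO1 and 2.34 CPM for ENO2. The gene next in the pathway before GAPDH, the isomerase TPI1, lies near ENO2 on chromosome 12 (6867420 to 6870948) and was at 110.6 and 105.2 CPM in the MYC controls and 105.2 and 111.2 CPM with Dox. It showed no call in any comparison, with log2 fold changes of 0.01 in the MYC-labelled libraries, 0.04 in MED30 and -0.17 in MYC&MED30.

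LDHA, the lactate dehydrogenase subunit that favours the making of lactate, lies at chr11:18394563-18408425. It was at 455.3 and 475 CPM in the MYC controls and 307.1 and 291.4 CPM with Dox. The drop was of similar size in both Dox libraries (log2 fold change -0.64, standard error 0.10, edgeR adjusted p = 1.86e-05), and it passed under all 17 alternatives tried. The MED30 values of LDHA went from 3136 and 3255 to 2110 and 2093 (-0.60, limma adjusted p = 0.000296), and passed under all 12 alternatives. In MYC&MED30 the level was already lower without Dox, at 182.4 and 150 CPM, and was 147.4 and 141.8 CPM with it. Its change of -0.24 did not pass (edgeR adjusted p = 0.168), and the difference between the responses of MYC&MED30 and MYC, 0.39 with a standard error of 0.14, did not pass either (edgeR adjusted p = 0.201). The fall of LDHA in MYC&MED30 was called with DESeq2 (-0.28, DESeq2 adjusted p = 0.0407), library size alone, the upper quartile and the fit of 4 libraries. With DESeq2 size factors, no filter, thinned counts or either replicate block it was not called. LDHB, the other subunit, had 75 counts in all 8 libraries and carried almost no transcription in these cells.

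GAPDH, the enzyme that makes the first NADH of the pathway and a common reference gene in expression assays, was the member called downward in every comparison. It was at 328.7 and 324 CPM in the MYC controls and 256.3 and 258.1 CPM with Dox (log2 fold change -0.34, edgeR adjusted p = 0.00867). In MYC&MED30 it went from 154.5 and 139 to 108.1 and 106.4 CPM (-0.48, edgeR adjusted p = 0.00187). No Dox library of GAPDH overlapped its controls in either line. In the MED30 values it fell by 0.31 on the log2 scale (limma adjusted p = 0.0112). GENCODE lists 65 processed pseudogenes of GAPDH, so its count is uncertain where reads are shared with near copies. Without MYC control 1 or 2 the call in the MYC-labelled libraries was lost (edgeR adjusted p = 0.212 and 0.195), and in MYC&MED30 it was lost without control 1, overexpression 1 or overexpression 2 (0.21, 0.0594 and 0.0799).

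PKM, the pyruvate kinase of the last step to pyruvate, was the member that rose in MYC&MED30. It went there from 253.7 and 207.4 CPM to 329 and 318.6 CPM (log2 fold change 0.45, standard error 0.10, edgeR adjusted p = 0.00484), a call lost on leaving out either Dox library (0.0943 and 0.06). In the MYC-labelled libraries it stood at 426.8 and 443.3 CPM without and at 512.5 and 510.7 CPM with Dox (0.23, edgeR adjusted p = 0.112). That rise was called with DESeq2 (0.25, DESeq2 adjusted p = 0.0184), DESeq2 size factors, the upper quartile and library size alone. It was not called with no filter, thinned counts, either replicate block or the fit of 4 libraries. In the MED30 values PKM rose by 0.27 (limma adjusted p = 0.0155). All Dox libraries of PKM lay above their controls. ALDOA, an aldolase, was at 38.2 and 35.1 CPM in the MYC controls and 30.9 and 27 CPM with Dox (-0.34, edgeR adjusted p = 0.0309). Its values in MYC&MED30 were much the same, 37.1 and 37.5 CPM against 31.1 and 26.8 CPM, but did not pass (-0.36, edgeR adjusted p = 0.072). The ALDOA call was lost under 9 of 17 alternatives, and with counts thinned to the smallest library its log2 fold change turned to 0.26 (edgeR adjusted p = 0.651).

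Of the 11 other enzymes with a usable level that were called in no comparison (HK1, HK2, GPI, PFKL, PFKM, PFKP, ALDOC, TPI1, PGK1, PGAM1 and ENO1), the hexokinase HK2, which commits glucose to the cell, was at 115.5 and 109.5 CPM in the MYC controls and 131.2 and 111.8 CPM with Dox (log2 fold change 0.11, edgeR adjusted p = 0.501). PGK1, the kinase that follows GAPDH, was at 190.6 and 190.5 CPM and at 175.4 and 165 CPM (-0.16, edgeR adjusted p = 0.32). In MYC&MED30, PGK1 was at 203.4 and 149.3 CPM without and at 149.5 and 149.3 CPM with Dox (-0.31, edgeR adjusted p = 0.0826), with the 2 controls far apart. This change was called with DESeq2 (-0.33, DESeq2 adjusted p = 0.0318), DESeq2 size factors, library size alone and the upper quartile. With no filter, thinned counts or either replicate block it was not called. A fit of the 4 libraries of MYC&MED30 alone, which sets no shared spread with the other line, called 7 members, and 11.9% of all genes. The fit of 8 libraries called 4 there without MYC overexpression 1 or without MYC&MED30 control 2, 5 without MYC overexpression 2, and 0 without either Dox library of MYC&MED30, where the shares of all genes were 10.7%, 6.67%, 12.3%, 3.44% and 3.14% in that order. In the fit of 4 libraries, the 6 that fell beside PKM were GAPDH, LDHA, PGK1 (-0.34, edgeR adjusted p = 0.000162), ENO1 (-0.21, 0.00669), ALDOA (-0.35, 0.0487) and the HIF target KDM3A. Over the 17 enzymes, 13 had a fold change below 0 in MYC&MED30 (median -0.125) and 8 in the MYC-labelled libraries (median 0.005).

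**Figure D2:**
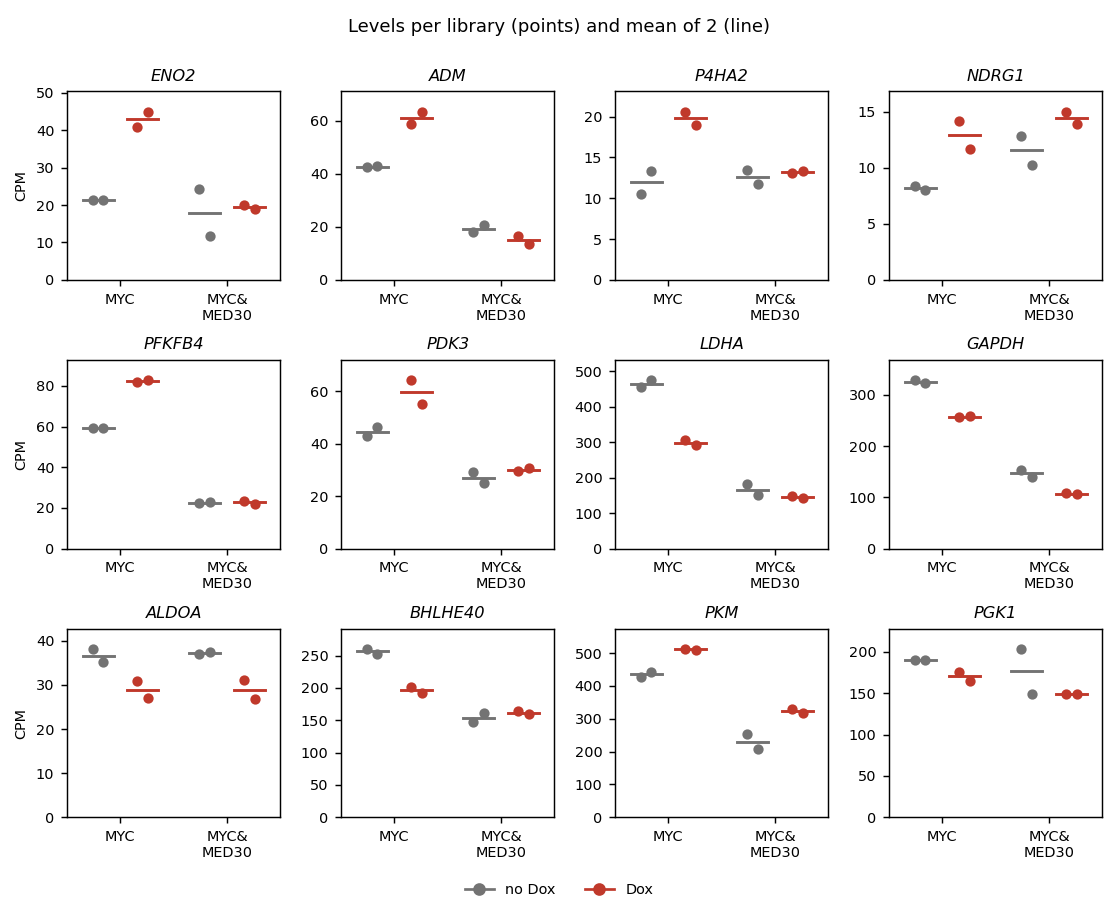
Levels of 12 members in CPM in each library, grey without and red with Dox, for MYC- and MYC&MED30-labelled libraries, where each point is 1 library, each line is the mean of 2 and every axis starts at 0. ENO2, ADM, P4HA2 and PFKFB4 stand higher with Dox where labelled MYC and show no such step in MYC&MED30, while GAPDH stands lower with Dox in both.

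No transporter was called in any comparison by the main fits of edgeR or limma, and none by DESeq2 on the counts. In the MYC-labelled libraries the upper quartile called SLC16A3 and SLC2A3 (edgeR adjusted p = 0.0415 and 0.035). Library size alone and no filter called SLC16A3 (0.0149 and 0.048), and DESeq2 size factors SLC2A3 (0.0451). Thinned counts, the replicate block and the fit of 4 libraries called neither, while the replicate block with crossed numbers called SLC16A3 and SLC2A3 (0.0201 and 0.0287). In MED30, SLC16A3 was called with library size alone and the replicate block (limma adjusted p = 0.0375 and 0.0109). The block with crossed numbers called SLC16A3 and SLC2A3 there (limma adjusted p = 0.00041 and 0.0242). At an unadjusted p under 0.05 there were 2 in the MYC-labelled libraries and 2 in MED30, SLC2A3 and SLC16A3 in each, and 0 in MYC&MED30. The glucose transporter SLC2A1 was at 217.4 and 206.4 CPM in the MYC controls and at 211.1 and 200.2 CPM with Dox (log2 fold change -0.04, edgeR adjusted p = 0.823), and its changes in MED30 (-0.01) and MYC&MED30 (-0.07) were as small. SLC2A3, another glucose transporter and the one with the highest level per kilobase of the 4, went from 293.7 and 279 to 248.1 and 234.5 CPM (-0.25, edgeR adjusted p = 0.0724). SLC16A3, which exports lactate, went from 36.3 and 34.5 to 39 and 49.1 CPM (0.32, edgeR adjusted p = 0.0642). For SLC2A3 and SLC16A3 the groups did not overlap, yet neither change passed in the main fit. SLC16A1, a lactate transporter that works in both directions, had log2 fold changes of -0.05, -0.01 and 0.19 in MYC-, MED30- and MYC&MED30-labelled libraries.

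The kinases that set the pace of glycolysis rose where they changed. PFKFB4, which makes the sugar phosphate that activates phosphofructokinase, was at 59.2 and 59.3 CPM in the MYC controls and at 81.9 and 82.7 CPM with Dox (log2 fold change 0.47, standard error 0.09, edgeR adjusted p = 0.000526). The replicates were nearly equal in each group, and the call passed under all 17 alternatives. In the MED30 values PFKFB4 rose by 0.54 (limma adjusted p = 0.00146), whereas in MYC&MED30 it was at 22.4 and 22.8 CPM and at 23.5 and 21.9 CPM (0.02, edgeR adjusted p = 0.969). PDK3, one of the kinases that shut pyruvate dehydrogenase and so keep pyruvate out of the mitochondrial cycle, rose from 42.8 and 46.4 to 64.2 and 55.2 CPM (0.42, edgeR adjusted p = 0.00453), and by 0.45 in MED30 (limma adjusted p = 0.0241). Its relative PDK1 rose in MED30 (0.34, limma adjusted p = 0.0244) and had 0.27 in the MYC-labelled libraries (edgeR adjusted p = 0.0516). PFKFB3, the relative of PFKFB4 with the higher level per kilobase (1.52 against 1.30 CPM in the MYC controls), did not pass in any comparison (-0.05, -0.02 and 0.07). UCN2 overlaps PFKFB4 on the same strand, as LRRC23 does ENO2, so reads of the overlap could fall to either gene.

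HIF1A, the oxygen-regulated subunit itself, did not rise. It was at 79.3 and 79.8 CPM in the MYC controls and at 74 and 56.1 CPM with Dox (log2 fold change -0.29, edgeR adjusted p = 0.0591), and in MYC&MED30 at 110.7 and 118.4 CPM and at 105.4 and 115 CPM (-0.03, edgeR adjusted p = 0.916). In the MED30 values it fell by 0.29 (limma adjusted p = 0.0266). Those values were 0.858 times the MYC counts, where the median ratio over genes was 0.27. The genes ENSG00000288928 and ENSG00000258964 overlap HIF1A on the same strand. HIF1A-AS1 and HIF1A-AS3 overlap it on the opposite strand, whose reads a count of sense-strand reads would leave out. Whether the value holds reads of other transcripts was not tested. EGLN1, the main prolyl hydroxylase that marks HIF1A for destruction, fell from 121.2 and 120.2 to 102.8 and 93.5 CPM (-0.30, edgeR adjusted p = 0.0264) and by 0.27 in MED30 (limma adjusted p = 0.0266). In MYC&MED30 its change of -0.11 did not pass. EGLN3, a hydroxylase that HIF is known to induce, had 187 counts in all 8 libraries, too few for its fold change of 1.00 in MYC&MED30 (standard error 0.72) to be read.

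The other HIF targets moved apart from each other. In MYC&MED30, 0 of them were called by the main fit of edgeR or by DESeq2 (1 at an unadjusted p under 0.05, ADM). Of the 11, 4 rose (ADM, NDRG1, P4HA1 and P4HA2) and 2 fell (BNIP3 and BHLHE40) in the MYC-labelled libraries, where the median was 0.042. ADM, which encodes the vessel-widening peptide adrenomedullin and lies at chr11:10305073-10307397, was at 42.6 and 42.8 CPM in the controls and at 58.7 and 63.4 CPM with Dox (log2 fold change 0.52, standard error 0.10, edgeR adjusted p = 0.000656). In MED30 it rose by 0.55 (limma adjusted p = 0.0032). In MYC&MED30 it was at 18.1 and 20.6 CPM without and at 16.5 and 13.6 CPM with Dox, lower with Dox but not past the test (-0.30, edgeR adjusted p = 0.216).

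P4HA2 and P4HA1 encode the catalytic subunits of collagen prolyl hydroxylase. P4HA2 went from 10.5 and 13.4 to 20.6 and 19 CPM (log2 fold change 0.73, standard error 0.14, edgeR adjusted p = 0.000512), and P4HA1 from 152.9 and 154.4 to 182.2 and 191.8 CPM (0.28, edgeR adjusted p = 0.0371). Both rose in MED30, by 0.77 and 0.32 (limma adjusted p = 0.00575 and 0.0138). In MYC&MED30 the P4HA2 libraries lay within 11.8 to 13.5 CPM, and P4HA1 was at 134.7 and 110.3 CPM and at 142.6 and 145 CPM (0.18, edgeR adjusted p = 0.355). NDRG1, a stress gene long used as a marker of hypoxia, rose from 8.42 and 8.05 to 14.2 and 11.7 CPM (0.65, edgeR adjusted p = 0.00464) and by 0.65 in MED30 (limma adjusted p = 0.0142). In MYC&MED30 it had 0.21 (edgeR adjusted p = 0.567).

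BHLHE40, a transcriptional repressor, fell from 260.3 and 253.2 to 201.9 and 192.6 CPM in the MYC-labelled libraries (log2 fold change -0.38, edgeR adjusted p = 0.00388) and by 0.35 in MED30 (limma adjusted p = 0.0054). In MYC&MED30 it was at 147.2 and 161 CPM without and at 164.1 and 159.5 CPM with Dox, and the groups overlapped. BNIP3, which takes part in the removal of mitochondria, fell from 55 and 52.9 to 46.8 and 38.5 CPM (-0.34, edgeR adjusted p = 0.0288), and by 0.31 in MED30 (limma adjusted p = 0.0498). The BNIP3 call was lost under 7 of 17 alternatives, without MYC control 1, control 2 or overexpression 2 among them, and GENCODE lists 44 processed pseudogenes of it.

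The 5 remaining HIF targets, VEGFA, CA9, KDM3A, BNIP3L and ANKRD37, showed no call in the main fits. KDM3A was called in the fit of the 4 libraries of MYC&MED30 (-0.20, edgeR adjusted p = 0.0351). VEGFA, the vessel growth factor, was at 51.5 and 50.5 CPM in the MYC controls and at 47.6 and 57.7 CPM with Dox (log2 fold change 0.05, edgeR adjusted p = 0.826). CA9, the carbonic anhydrase of hypoxic tumours, was at 5.71 and 5.78 CPM and at 6.66 and 5.21 CPM (0.04, edgeR adjusted p = 0.93). In MYC&MED30 both changed by less than their standard error, VEGFA by -0.03 and CA9 by 0.03. The demethylase KDM3A had -0.11, -0.08 and -0.19 in MYC-, MED30- and MYC&MED30-labelled libraries, and neither BNIP3L nor ANKRD37 passed in any comparison.

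The lines also stood apart before Dox for some members. The mean of the controls was 465.1 ± 13.9 CPM for LDHA in the MYC-labelled libraries and 166.2 ± 22.9 CPM in MYC&MED30 (SD, 2 libraries each). For PFKFB4 the means were 59.3 ± 0.0807 and 22.6 ± 0.301 CPM, for GAPDH 326.3 ± 3.33 and 146.7 ± 10.9 CPM, and for ADM 42.7 ± 0.12 and 19.3 ± 1.79 CPM. Other members stood higher in MYC&MED30, such as HIF1A (79.6 ± 0.366 and 114.5 ± 5.43 CPM) and CA9 (5.74 ± 0.0484 and 8.2 ± 0.153 CPM). ALDOA (36.6 ± 2.15 and 37.3 ± 0.284 CPM) and P4HA2 (11.9 ± 2.03 and 12.6 ± 1.24 CPM) had like levels in both. These values are a description, as no test between untreated lines was made. Per kilobase of gene, the 5 members with the highest mean level in the MYC controls were GAPDH (84.7 CPM), BHLHE40 (43.6), LDHA (33.6), ENO1 (33.4) and TPI1 (30.6), and in MYC&MED30 GAPDH (38.1) stood before ENO1 (27.1), BHLHE40 (26.2) and TPI1 (25.8), with LDHA at 12.

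The responses of the MYC-labelled libraries and of MYC&MED30 were compared in one edgeR fit, to ask whether the members answered Dox differently in the 2 lines. The difference was called for 2 of 39 members (5.13%), ENO2 and ADM, both lower in MYC&MED30, against 1.07% of all genes, of which 0.714% were higher and 0.357% lower. For ENO2 the log2 difference was -1.21 (standard error 0.19, edgeR adjusted p = 0.00102) and for ADM -0.81 (standard error 0.17, edgeR adjusted p = 0.0126). Neither was called once MYC&MED30 control 1 was left out and the shallow library was the sole control of that line. The ENO2 difference then shrank to -0.26 (edgeR adjusted p = 0.783), whereas that of ADM was -0.95 (0.18). The ADM call was also lost without MYC control 1 (0.0641), MYC control 2 (0.0557) or MYC&MED30 overexpression 2 (0.122). Without MYC overexpression 1 or 2, the ENO2 difference was -1.289 and -1.185 and that of ADM -0.861 and -0.778. Next in order were BHLHE40, higher by 0.47 (edgeR adjusted p = 0.0757), and P4HA2, lower by 0.74 (edgeR adjusted p = 0.0969), which did not pass. At the study's thresholds 7 members differed, against 10.2% of all genes. Over the 39 members the log2 fold changes of the 2 lines had a Pearson correlation of 0.127, against 0.286 over 19318 genes, and 23 members had the same sign in both. The points of these correlations share libraries and are not independent, and genes with few counts such as LDHB and EGLN3 are among them.

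Of 92 further genes of the same pathways, 85 were tested in the MYC-labelled libraries, where 13 rose and 5 fell (21.2%, against 13% of all genes), and 74 in MED30, where 14 rose and 4 fell (24.3%, against 16.4%). In MYC&MED30 2 of 85 rose and 4 fell (7.06%, near the 6.74% of all genes). EPAS1, which encodes HIF2A, the sister of HIF1A, was at 5.54 and 6.26 CPM in the MYC controls and at 12 and 10.6 CPM with Dox (log2 fold change 0.94, standard error 0.17, edgeR adjusted p = 0.000394). In MYC&MED30 it went from 5.01 and 4.41 to 8.24 and 9.2 CPM (0.82, edgeR adjusted p = 0.0163), and in MED30 it rose by 0.97 (limma adjusted p = 0.0033). All Dox libraries of EPAS1 lay above all controls, and the responses of the 2 lines differed by -0.12 (standard error 0.28). The call in MYC&MED30 was lost without control 1 (0.415) or overexpression 2 (0.108), with DESeq2 (0.0724), with the replicate block (0.0573) and with thinned counts (0.384). SLC2A10, a member of the glucose transporter family, rose by 0.53, 0.55 and 0.43 in MYC-, MED30- and MYC&MED30-labelled libraries (adjusted p = 0.00517, 0.0129 and 0.0403 by edgeR, limma and edgeR). Its MYC&MED30 controls were far apart, at 33.6 and 21.3 CPM, and the call there was lost on leaving out any of the 4 libraries of the line (log2 fold changes of 1.01 and 0.33 without control 1 and 2, adjusted p = 0.0548 and 0.112, and 0.42 and 0.46 without overexpression 1 and 2, 0.158 and 0.117) and with DESeq2 (0.117). It was not called either without MYC control 2 (0.118) or without MED30 control 1 (0.0771) or 2 (0.172).

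The genes that fell with Dox under each label included LOXL2, an enzyme that crosslinks collagen, and AK4, a mitochondrial adenylate kinase. Both are known HIF targets, and the labels MYC and MED30 are not read as independent. LOXL2 went from 524.3 and 518.4 to 404.2 and 356.3 CPM where labelled MYC (log2 fold change -0.46, edgeR adjusted p = 0.00112) and from 162.4 and 147.1 to 104 and 108.9 CPM in MYC&MED30 (-0.56, edgeR adjusted p = 0.00059), and fell by 0.44 in MED30 (limma adjusted p = 0.00194). AK4 went from 181 and 192.4 to 148.5 and 126.1 CPM and, in MYC&MED30, from 141.7 and 133.1 to 98.9 and 106.9 CPM (-0.44 and -0.43, edgeR adjusted p = 0.0015 and 0.00729), and fell by 0.41 in MED30 (limma adjusted p = 0.00712). No Dox library of either gene overlapped its controls. The LOXL2 calls were lost without MYC control 1 (0.0547), MED30 control 1 (0.0716) or MYC&MED30 control 1 (0.142), and those of AK4 without MYC control 2 (0.0969), MED30 control 2 (0.104), MYC&MED30 control 1 (0.316), overexpression 1 (0.178) or overexpression 2 (0.0579).

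**Figure D3:**
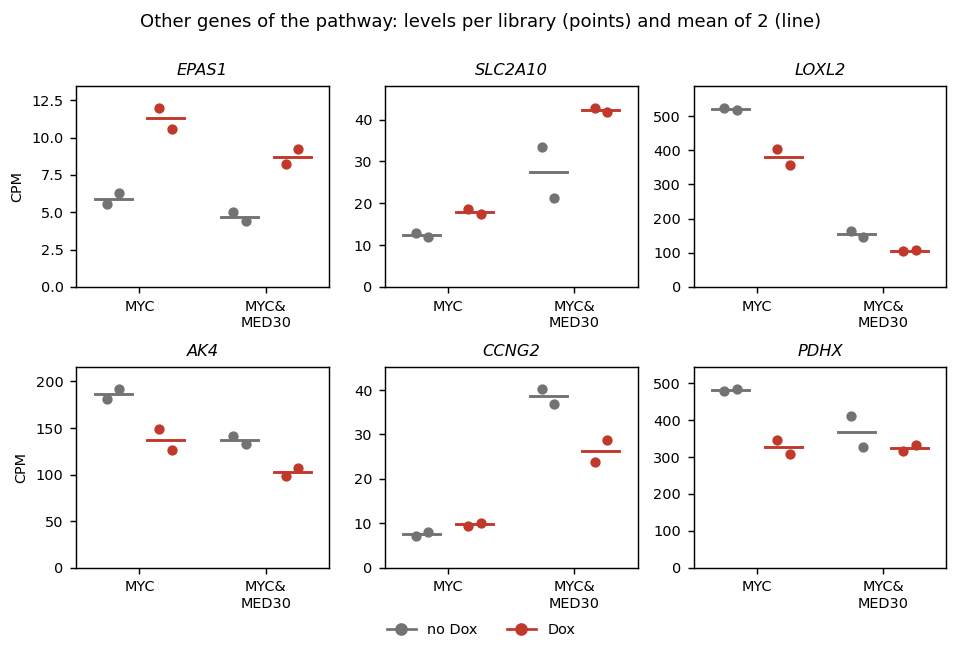
Levels of 6 further pathway genes in CPM in each library, grey without and red with Dox, for MYC- and MYC&MED30-labelled libraries, with the mean of 2 as a line and axes that start at 0. EPAS1 and SLC2A10 stand higher and LOXL2 and AK4 lower with Dox in both, while CCNG2 is lower with Dox in MYC&MED30 only.

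Of all genes, 13% were called in the MYC-labelled libraries, 16.4% in MED30 and 6.74% in MYC&MED30. By list, the further glycolytic and gluconeogenic genes had 2 of 20 up and 1 down in the MYC-labelled libraries (15%) and 6 of 20 up in MED30 (30%). In MYC&MED30 none of 20 was called by the main fit of edgeR or by DESeq2 (4 at an unadjusted p under 0.05). In the MYC-labelled libraries the calls were as follows. BPGM, which makes the phosphate that loosens oxygen from haemoglobin, rose by 0.50 (edgeR adjusted p = 0.0013) and PGM1, which links glucose to glycogen, by 0.40 (edgeR adjusted p = 0.0121), while the kinase ADPGK fell by 0.34 (edgeR adjusted p = 0.0275). The ADPGK call was lost with DESeq2 (0.105), library size alone (0.18), the replicate block (0.0538), thinned counts (0.452) and the fit of 4 libraries (0.0759), without MYC control 1 (0.252) or 2 (0.207), and without overexpression 2, where the change was -0.18 (0.348). The BPGM call was lost without MYC control 1 (0.0792), and that of PGM1 without MYC control 1 (0.167) or 2 (0.0917). In MED30 the list's calls included BPGM (0.52), PGM1 (0.42) and PCK2 (0.43), of which PCK2 was at 0 in all 8 count libraries, and each lost its call without MED30 control 1 (0.0732, 0.149 and 0.0908). Of the further transporters, SLC2A10 and SLC2A4 rose among 10 tested in the MYC-labelled libraries (20%) and among 7 in MED30 (28.6%). SLC2A4 was low, at 2.1 and 1.79 CPM in the controls and 3.43 and 4.77 CPM with Dox (log2 fold change 1.07, edgeR adjusted p = 0.0121), a call lost without MYC control 1 (0.083), control 2 (0.211) or overexpression 2 (0.122). Of 11 genes for the entry of pyruvate into mitochondria, PDHX, a structural subunit of pyruvate dehydrogenase, was the single call in the MYC-labelled libraries (9.09%). PDHX went there from 479.8 and 485.7 to 346.4 and 308.7 CPM (-0.56, edgeR adjusted p = 0.00028). It was also the single call in MED30 (-0.53, limma adjusted p = 0.000803), again 9.09%. In MYC&MED30, 0 were called by the main fit of edgeR or by DESeq2 (4 at an unadjusted p under 0.05). PDHX had -0.22 there (edgeR adjusted p = 0.251).

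The HIF machinery had 15.4%, 18.2% and 7.69% called in MYC-, MED30- and MYC&MED30-labelled libraries. For the further HIF targets these shares were 32.3%, 28% and 12.9%, and over all genes 13%, 16.4% and 6.74%. Of the HIF machinery, EPAS1 and ELOC, a part of the ligase that destroys HIF, rose among 13 genes tested in the MYC-labelled libraries (ELOC by 0.41, edgeR adjusted p = 0.00263). Both rose among 11 in MED30 (ELOC by 0.44, limma adjusted p = 0.00578), and EPAS1 alone among 13 in MYC&MED30. The ELOC calls were lost without either MYC control (0.152 and 0.0646) or either MED30 control (0.0802 and 0.084). Of the further HIF targets, 7 of 31 rose and 3 fell in the MYC-labelled libraries, with PPFIA4 (0.60), ANGPTL4 (0.55), WSB1 (0.45) and LOXL2 (-0.46) first by p. In MED30 4 of 25 rose and 3 fell, WSB1 (0.48), ZNF395 (0.53) and KDM4B (0.40) among those up. The ANGPTL4 call was lost with DESeq2 (0.181), WSB1 in the MYC-labelled libraries without MYC control 1 (0.0693), ZNF395 in MED30 without control 2 (0.0809) and KDM4B there without either control (0.0563 and 0.0858). In MYC&MED30 no gene of this list rose and 4 of 31 fell, among them LOXL2, AK4 and CCNG2, an unusual cyclin linked to growth arrest (-0.59, edgeR adjusted p = 0.00515), whose call was lost without control 1 (0.428) or overexpression 1 (0.112) of that line.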

How the data were processed

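Conditions and replicate numbers of the 12 PRO-seq libraries came from the sample labels. Per the methods and the submitters' processing notes, Trim Galore removed adapters, Bowtie2 (its version is not given in the sources used here) aligned to hg38, featureCounts 2.0.3 assigned sense-strand reads along each whole gene, and the authors tested with DESeq2 2.11.40.8. The 8 tables labelled MYC or MYC&MED30 were deposited as raw counts. The 4 deposited MED30 tables hold a score, that is, values scaled to nearly equal totals and rounded.

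In R 4.3.3, counts were fitted with edgeR 4.0.16 (TMM, filterByExpr, quasi-likelihood test, 4 groups in one fit). MED30 values were fitted with limma 3.58.1 (trend) as log2 of TMM-scaled values plus 1, for genes that reached 10 in 2 or more libraries, so that changes of low genes are understated. P-values were adjusted by Benjamini-Hochberg over all genes tested. Scripts were tested on simulated data. Alternatives were other scalings, filters and pseudocounts, DESeq2 1.42.0, thinned counts, a replicate block, fits of 4 libraries and leaving out each library.

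Members and lists were chosen with earlier results of these data known. Named genes were all called members, LDHA, PGK1, HK2, SLC2A1, HIF1A, VEGFA and CA9, up to 3 others per role by level, and, of the 92 further genes in 5 lists, up to 4 per list and comparison with the smallest adjusted p among those called, of which 2 are not reported here. Gene positions are those of RefSeq on GRCh38.p14, and overlaps and pseudogenes those of GENCODE. Replicates with the same number did not deviate together (correlation of -0.184 in MYC, -0.147 in MYC&MED30 and -0.206 in MED30). Depth limits MYC&MED30 control 2 above all.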

Additional observations from a re-analysis of the deposited data

Results flagged for a closer look

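The responses to Dox of MYC&MED30 and of the libraries labelled MYC differed by the test of the difference itself for 3 of the genes followed. ENO2, a glycolytic enzyme, responded lower in MYC&MED30 by -1.21 on the log2 scale (edgeR adjusted p = 0.00102), ADM, the adrenomedullin gene, by -0.81 (0.0126), and CCNG2, a HIF target among the further genes, by -0.97 (0.0106).

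CCNG2 was at 7.08 and 8.01 CPM in the MYC controls and 9.45 and 10.2 CPM with Dox, and at 40.4 and 36.8 CPM in the MYC&MED30 controls and 23.7 and 28.6 CPM with Dox. Its 2 responses thus ran in opposite directions (log2 fold change 0.38, edgeR adjusted p = 0.0804, and -0.59, 0.00515), from levels that differed before Dox. The difference was lost without MYC control 1 (edgeR adjusted p = 0.0923), MYC&MED30 control 1 (0.191) or MYC&MED30 overexpression 1 (0.0715). Groups of 2 libraries were too small for a search for single outlying samples.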

How the results depend on the processing

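The members called in the libraries labelled MYC (13) numbered 9 to 18 under other scalings and filters, DESeq2, the fit of 4 libraries and the replicate block, but 2 with counts thinned to the smallest library, which leaves fewer reads, and 8 at the study's thresholds. With one library left out they numbered 4 to 20, with medians of -0.029 to 0.016. The median moved to 0.154 with library size alone and 0.050 with the upper quartile. In MED30 (15), 3 were called with no filter on low values (median 0.054), 8 at the study's thresholds and 4 to 25 with one library left out (medians 0.012 to 0.086), and the median was 0.184 with library size alone. In MYC&MED30 (2), 4 were called with library size alone, the upper quartile or DESeq2, 7 in the fit of 4 libraries and 1 with thinned counts. The shares of all genes called were 9.49%, 8.91%, 4.33%, 11.9% and 3.82% in that order. With one library left out the medians were -0.035 to 0.035. For the difference (2), 0 were called with thinned counts, 7 at the study's thresholds and 0 to 5 with one library left out (medians -0.143 to 0.090), and the median was -0.149 with library size alone. With thinned counts the share of all genes called fell too, to 5.66% in the libraries labelled MYC and 0.272% for the difference. In MED30 with no filter on low values it fell to 1.76%. The main fits had called 13%, 1.07% and 16.4% of all genes in that order. Of the calls of single genes, only that of ALDOA in the libraries labelled MYC changed direction, to 0.26 with thinned counts. The medians outside MED30 took both signs. Calls of single genes were lost in 77, 68, 26 and 11 combinations of gene and alternative in the libraries labelled MYC, MED30, MYC&MED30 and their difference. In the same order, calls that the main fits had not made were gained in 48, 33, 39 and 19 combinations. Where no cause is given, the cause was not tested.

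With the replicate number as a block, 9 members were called in the libraries labelled MYC, 16 in MED30, 2 in MYC&MED30 and 2 in the difference, and the number of all genes called in the libraries labelled MYC went from 2518 to 1812. The shares of all genes called were 9.38%, 17.3%, 4.81% and 0.72% in that order. The labels state no pairing. A block with crossed numbers, added after seeing the data, called 18, 18, 3 and 4, against 17.8%, 27%, 8.73% and 3.16% of all genes. No fit of the difference from 4 libraries was possible.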
